A study of Equus caballus with 45 samples.

Results

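The genes described are 10 nucleic acid sensors and their adaptors, TLR3, TLR9, IFIH1, DHX58, ZBP1, STING1, TICAM1, MAVS, TBK1 and IRF3, which were chosen by name among the 20881 protein coding genes of 45 equine RNA sequencing libraries. All 10 were listed in both count tables, once each. The first table holds 12 libraries of bone marrow mesenchymal stromal cells (MSC) of the donor horses PC, 99 and 92, with 1 library per donor for untreated MSC, MSC given the TLR3 agonist poly I:C, MSC given the STING agonist 2′3′-cGAMP and MSC under the label CpG. The second table holds 33 libraries of synoviocytes, chondrocytes and macrophages, 11 per cell type. In each type, 9 libraries are from cells given IL-1β and TNF-α as well as conditioned medium (CM) of MSC. The medium was of resting MSC, of TLR3 agonist treated MSC (TLR-MSC-CM) or of STING agonist treated MSC (STING-MSC-CM). The labels of these libraries carry the names PC, ORC and AG1, which are read here as the MSC donors of the media. The labels do not state this, and titles of libraries without medium also carry ORC or PC. On this reading the labels carry 5 MSC donor names where the study's methods give 3 horses. Whether ORC and AG1 are the donors 99 and 92 is not stated. The cytokines were thus shared by all 3 media, and 1 library per cell type had cytokines without medium and 1 had no addition.

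MSC were exposed to an agonist for 2 h and then cultured for 24 h. Agonist doses are 10 ng/mL in the sample labels but 10 µg/mL in the study's design text, and CpG has no stated dose. IL-1β and TNF-α were each at 20 ng/mL on synoviocytes and chondrocytes and, by the labels, at 10 ng/mL on macrophages, for which the study's methods give 20 ng/mL. Joint cells were exposed for 24 h and cultured for another 24 h, so their RNA was taken after the medium had been removed. The study's abstract instead gives the cytokines for 2 h, then a wash and the medium for 24 h. Each joint cell type came from 1 horse, and its replicates are read as differing in the donor of the medium. On that reading, p-values there measure the spread between media on the same cells. The chondrocytes and synoviocytes were expanded in culture, and the macrophages were grown from blood monocytes with M-CSF. In bulk RNA, fewer cells of a type and less RNA per cell cannot be told apart.

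TLR3 and TLR9 are endosomal receptors for double stranded RNA and for DNA with unmethylated CpG, and TICAM1 is the adaptor through which TLR3 signals. IFIH1, also called MDA5, detects long double stranded RNA in the cytosol and signals through MAVS on mitochondria, and DHX58, also called LGP2, is a related helicase without the signalling domains that modulates it. STING1 is the membrane receptor for cyclic dinucleotides such as cGAMP, ZBP1 binds left-handed nucleic acids and can start cell death, and the kinase TBK1 phosphorylates the transcription factor IRF3 in the routes through TICAM1, MAVS and STING1. TLR9 signals through another adaptor, MYD88. Several of the sensors are themselves known as interferon-inducible genes, and MSC and macrophages are both studied as targets of such agonists.

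Levels are given as CPM, the counts relative to library size, scaled by edgeR's trimmed mean factors within each table, and are compared only within a gene because transcript length was not taken into account. A count of 3 reads corresponds to 0.0562 to 0.127 CPM across the libraries, whose total counts ran from 23525704 to 54103873. A change is called where the adjusted p of edgeR's quasi-likelihood test over all genes tested is below 0.05. By that test 0 genes, 0% of those tested, were called in any comparison of treatments within a cell type, so DESeq2 and unadjusted counts are given beside it.

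Some libraries stood apart from the others. The MSC library labelled TLR3 agonist of donor 92 had levels of TLR3, IFIH1, DHX58 and ZBP1 at or below those of untreated MSC, as given below, and whether it was exposed as labelled was not tested. ZC3HAV1 and EIF2AK2 were at 9.47 CPM or more and 7.73 CPM or more in all 3 TLR3 agonist libraries, against at most 6.94 and 5.50 CPM untreated. Both were named by a rule that requires the same direction in all 3 donors, so their direction in donor 92 was fixed beforehand. Of all genes, 0.773% were higher in all 3 TLR3 agonist libraries than in any untreated one. The 3 chondrocyte libraries given media of donor ORC differed from those of PC and AG1 in all 3 media. CXCL8, a neutrophil chemokine, was at 35.6 to 184 CPM with ORC media and at 889 to 3374 CPM with the others. In the chondrocyte libraries without medium it was at 3.04 CPM with no addition and at 3279 CPM with cytokines alone. Among the 10 genes, DHX58 was at 0.564 to 1.06 CPM with ORC media against 2.79 to 12.7 CPM, and TICAM1 at 10.1 to 11.5 against 16.3 to 21.6 CPM. STING1 was at 9.31 to 10.0 against 14.6 to 17.4 CPM, and TBK1 at 24.3 to 25.4 against 37.3 to 42.6 CPM. The ranges of the other genes overlapped. Cells labelled chondrocytes held little of the chondrocyte marker list, with a summed level of 20.3 to 86.9 CPM given resting medium, 2 of 8 genes over 1 CPM, and COL9A1 and SNORC at 0. The top of that range was the ORC library, and the sum was 145 CPM with no addition and 15.5 CPM with cytokines alone. The 7 synoviocyte markers found were all over 1 CPM in chondrocytes given resting medium and summed to 22134.6 to 40263.4 CPM, against 64006.2 to 67868.5 CPM in synoviocytes. Macrophage markers summed to 9239 to 11344 CPM in the macrophages, in which the 4 T cell markers also summed to 227 to 258 CPM. The 4 dendritic cell markers summed to 239 to 349 CPM there, with 2 of them over 1 CPM. The part of these features in the results was not tested.

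In MSC, TLR3, IFIH1, DHX58 and ZBP1 were low without treatment and high in all 3 STING agonist libraries and in the TLR3 agonist libraries of donors 99 and PC. The groups overlapped for TLR9, STING1, TICAM1, MAVS, TBK1 and IRF3. The comparisons of each agonist with untreated MSC share the untreated libraries.

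TLR3, the receptor for the RNA agonist, was at 1.36, 3.08 and 1.06 CPM in untreated MSC of donors 92, 99 and PC. With the TLR3 agonist it was at 0.938, 17.2 and 42.1 CPM in the same order, and with the STING agonist at 19.4, 32.3 and 27.6 CPM. All 3 STING agonist libraries lay above the untreated ones, while the TLR3 agonist library of donor 92 lay below them. Within donors the TLR3 agonist libraries were 5.59-fold (99) and 39.7-fold (PC) higher than the untreated ones, against 0.691-fold in donor 92. The log2 fold change was 3.47 ± 1.07 (SE, n = 3) with the TLR3 agonist (edgeR adjusted p = 1, DESeq2 adjusted p = 0.0492) and 3.87 ± 1.09 with the STING agonist (edgeR adjusted p = 1, DESeq2 adjusted p = 0.00789).

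IFIH1 was at 0.313, 3.98 and 1.28 CPM in untreated MSC of donors 92, 99 and PC. It was at 0.248, 48.5 and 97.4 CPM with the TLR3 agonist and at 26.2, 75.5 and 66.8 CPM with the STING agonist. The STING agonist libraries again did not overlap the untreated ones, and donor 92 was low with the TLR3 agonist. The STING agonist libraries were 83.5-fold (92), 19.0-fold (99) and 52.0-fold (PC) above the untreated library of their donor. On the log2 scale the change was 4.73 ± 1.63 (SE, n = 3) with the TLR3 agonist (edgeR adjusted p = 1, DESeq2 adjusted p = 0.0429) and 4.93 ± 1.65 with the STING agonist (edgeR adjusted p = 1, DESeq2 adjusted p = 0.0169).

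DHX58 was at 0.710, 2.61 and 1.09 CPM in untreated MSC of donors 92, 99 and PC. With the TLR3 agonist it was at 0.414, 174 and 329 CPM, and with the STING agonist at 144, 307 and 250 CPM. The STING agonist libraries were 202-fold (92), 118-fold (99) and 229-fold (PC) above untreated MSC, and the TLR3 agonist libraries 66.9-fold (99) and 302-fold (PC), against 0.583-fold in donor 92. For DHX58 the log2 fold change was 6.86 ± 1.77 (SE, n = 3) with the TLR3 agonist (edgeR adjusted p = 1, DESeq2 adjusted p = 4.25e-05) and 7.33 ± 1.81 with the STING agonist (edgeR adjusted p = 1, DESeq2 adjusted p = 2.68e-06).

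ZBP1 was nearly undetected in untreated MSC, with 0, 3 and 6 counts in donors 92, 99 and PC. With the TLR3 agonist it was at 0, 65.1 and 128 CPM, and with the STING agonist at 45.6, 129 and 81.0 CPM. Donor 92 thus had 0 counts in both its untreated and its TLR3 agonist library. In donor 99 the ratio to the 3 untreated counts was 774 (95% exact counting interval 265 to 3756) with the TLR3 agonist, and in donor PC the ratio was 664. With the STING agonist the ratio was at least 727 in donor 92, taking 3 counts as the floor of its untreated library. DESeq2 gave an adjusted p of 0.00567 with the TLR3 agonist and of 0.00168 with the STING agonist, and edgeR gave 1 for both.

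**Figure D1:**
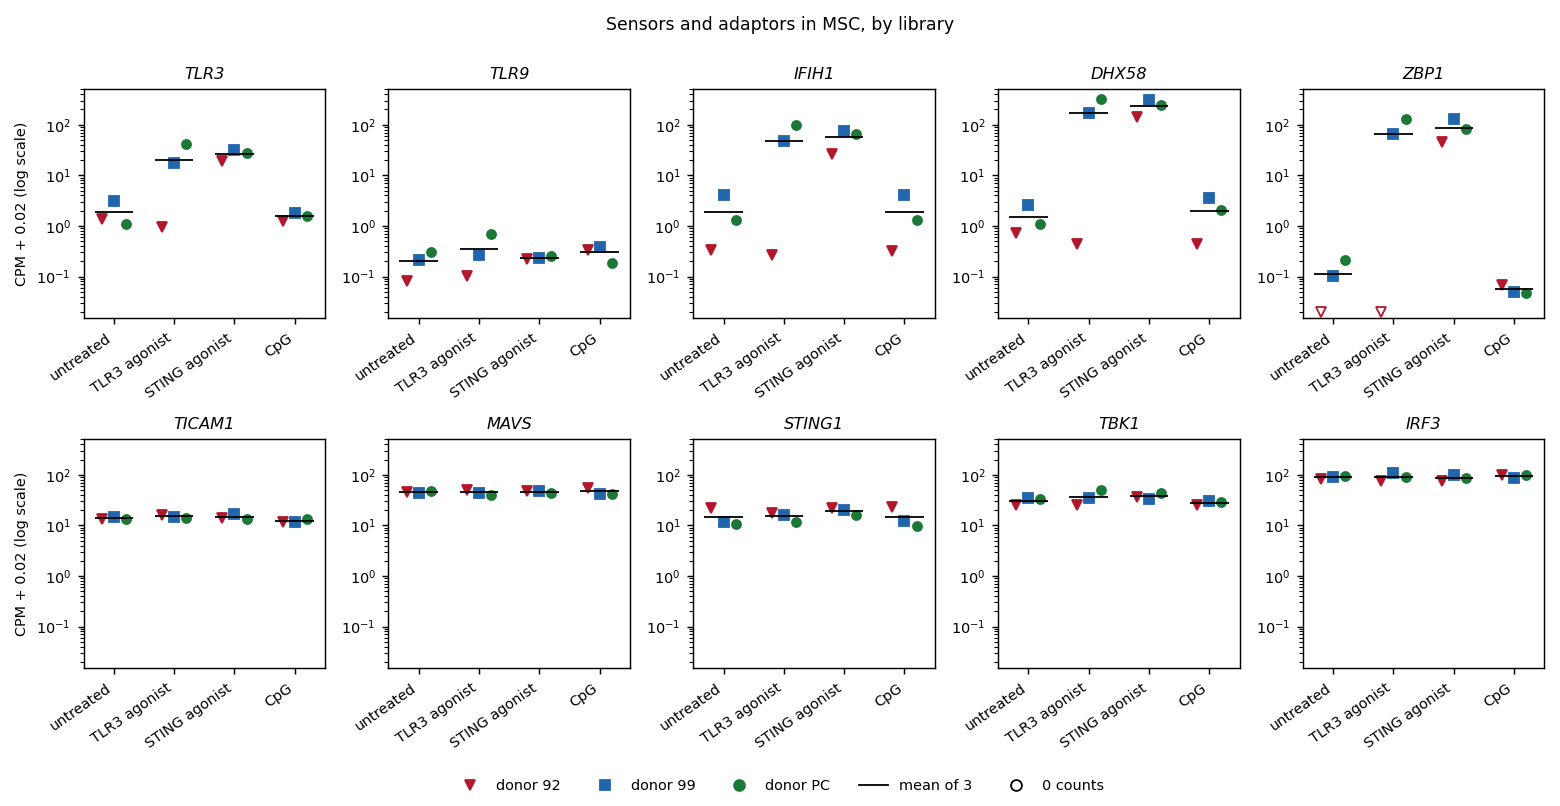
CPM plus 0.02 on a log axis for each of the 10 genes in untreated, TLR3 agonist, STING agonist and CpG MSC, with a symbol per donor, open where the count was 0, and a line at the mean of 3 libraries. TLR3, IFIH1, DHX58 and ZBP1 are high in all 3 STING agonist libraries and in 2 of the 3 TLR3 agonist libraries, with donor 92 at 0.938, 0.248, 0.414 and 0 CPM.

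Of the 10 genes, edgeR called 0 with either agonist, beside 0% of all genes. DESeq2 called the same 4, TLR3, IFIH1, DHX58 and ZBP1, with each agonist, where it called 0.418% of all genes with the TLR3 agonist (52 genes) and 0.685% with the STING agonist (95 genes). The unadjusted edgeR p was under 0.05 for those 4 with each agonist, beside 1.15% and 2.1% of all genes. The 4 genes were higher in all 3 STING agonist libraries than in any untreated one, as were 3.22% of all genes, and none of the 10 was so with the TLR3 agonist, where 0.773% of all genes were. An exact permutation test of 3 against 3 libraries cannot give a p below 0.1. With the donor as a replicate block, edgeR still called 0, and DESeq2 called DHX58 (adjusted p = 0.0152) and ZBP1 (0.0216) with the TLR3 agonist beside 0.316% of all genes, and all 4 with the STING agonist beside 2.79%.

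Without the TLR3 agonist library of donor 92, edgeR called 3 of the 10 with the TLR3 agonist, beside 0.345% of all genes. These were TLR3 (adjusted p = 0.0393), DHX58 (0.00663) and ZBP1 (0.00663). Without donor 92 in every MSC group, also chosen after seeing the data, edgeR called DHX58 and ZBP1 with each agonist, beside 0.173% of all genes with the TLR3 agonist and 0.277% with the STING agonist. For DHX58 the log2 fold change was then 7.08 (edgeR adjusted p = 0.0414) with the TLR3 agonist and 7.24 (edgeR adjusted p = 0.0322) with the STING agonist.

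Of the adaptors and the kinase branch, none was called in MSC by edgeR or DESeq2. STING1, the receptor of the second agonist, was at 22.5, 11.5 and 10.4 CPM in untreated MSC of donors 92, 99 and PC, at 17.7, 16.4 and 11.7 CPM with the TLR3 agonist, and at 21.7, 20.6 and 15.8 CPM with the STING agonist. The groups overlapped, and its log2 fold change was 0.07 ± 0.32 and 0.41 ± 0.32 (SE, n = 3). TBK1 had means of 31.0 ± 4.96 (SD, n = 3), 36.3 ± 12 and 37.6 ± 6.16 CPM in the untreated, TLR3 agonist and STING agonist libraries, and reached 49.0 CPM in the TLR3 agonist library of PC against at most 34.3 CPM untreated. TICAM1 had means of 13.7 ± 0.708, 15.1 ± 0.958 and 14.7 ± 1.67 CPM, MAVS of 46.1 ± 2.13, 44.9 ± 5.51 and 46.4 ± 2.22 CPM, and IRF3 of 90.1 ± 7.30, 92.0 ± 16.9 and 87.3 ± 11.2 CPM. Over these 5 genes the log2 fold change ran from −0.01 to 0.25 with the TLR3 agonist and from −0.02 to 0.41 with the STING agonist. TLR9 stayed below 1 CPM in all 12 MSC libraries, with only 3 to 33 counts, and was not called with either agonist. With the TLR3 agonist it was at 0.0828, 0.251 and 0.663 CPM in donors 92, 99 and PC, against 0.0627, 0.196 and 0.289 CPM untreated.

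The agonists were also set against each other. The STING agonist minus TLR3 agonist log2 difference was 0.39 ± 0.97 (SE, n = 3) for TLR3, 0.20 ± 1.38 for IFIH1, 0.47 ± 1.36 for DHX58 and 0.40 ± 1.5 for ZBP1. None was called by edgeR (adjusted p = 1 for each) or by DESeq2, beside 0.00678% of all genes by DESeq2, and none had an unadjusted edgeR p under 0.05, beside 0.242% of all genes. The standard errors are larger than the differences, so these values do not show that the agonists acted alike.

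CpG DNA is the ligand class of TLR9. In the CpG libraries TLR9 was at 0.32, 0.35 and 0.17 CPM in donors 92, 99 and PC, against 0.0627, 0.196 and 0.289 CPM in untreated MSC, and the groups overlapped. TLR3 was at 1.23, 1.80 and 1.51 CPM, IFIH1 at 0.296, 4.14 and 1.27 CPM, and DHX58 at 0.419, 3.52 and 2.01 CPM, each within or close to the untreated range. The log2 fold change was 0.63 ± 0.80 (SE, n = 3) for TLR9 and 0.43 ± 1.39 for DHX58. Of the 10 genes, 0 were called by edgeR or DESeq2, beside 0% of all genes by either, and 0 had an unadjusted edgeR p under 0.05, beside 0.305% of all genes.

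The other genes of these routes were taken from 4 lists that leave out the 10 genes. EdgeR called 0 of them with either agonist. DESeq2 called 6 of the 23 RNA sensing genes tested as higher with each agonist, namely DDX58, EIF2AK2, OAS1, OAS2, OAS3 and ZC3HAV1, beside 0.418% of all genes with the TLR3 agonist and 0.685% with the STING agonist. ZC3HAV1, an antiviral protein that binds CpG-rich RNA, had a mean of 5.46 ± 1.53 CPM (SD, n = 3) in untreated MSC, 25.4 ± 20.8 CPM with the TLR3 agonist (DESeq2 adjusted p = 0.0258) and 35.7 ± 7.53 CPM with the STING agonist (DESeq2 adjusted p = 0.000659). OAS3, which makes the activator of RNase L, was at 694 ± 141 CPM with the STING agonist against 18.5 ± 9.55 CPM (DESeq2 adjusted p = 4.52e-06).

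In the kinase and IRF list, DESeq2 called IRF7 and IRF9 with the TLR3 agonist, and IRF7, IRF9, MLKL and TRIM21 with the STING agonist, of 24 list genes tested and beside the same shares of all genes. IRF9, the DNA binding subunit of the factor that acts below the interferon receptor, was at 208 ± 48.8 CPM (SD, n = 3) with the STING agonist against 25.2 ± 4.30 CPM (DESeq2 adjusted p = 0.00176). DESeq2 called 0 genes of the DNA sensing and STING regulator list and 0 of the endosomal TLR list with either agonist. The median edgeR log2 fold change was 0.13 for RNA sensing, 0.02 for DNA sensing, 0.06 for the endosomal TLR list and 0.13 for the kinase list with the TLR3 agonist, against 0.02 over all genes. With the STING agonist these medians were 0.19, 0.10, 0.18 and 0.11, against 0.01 over all genes.

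A macrophage marker moved with the agonists in MSC. The macrophage list of 10 genes summed to 12.6 to 17.1 CPM in untreated MSC, 10.6 to 140 CPM with the TLR3 agonist and 52 to 328 CPM with the STING agonist. Nearly all of it was CD68, a lysosomal protein, at 12 to 15.1, 9.74 to 139 and 50.8 to 327 CPM, while CD163 and AIF1 were at 0. PTPRC and CD34, which MSC should lack, did not exceed 1.48 CPM.

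Over the 12 MSC libraries, the genes most like each member were ranked by Pearson's r of log2(CPM + 1) over 11809 genes. The nearest were PML (r = 0.991) for TLR3, PARP10A (0.995) for IFIH1, XAF1 (0.996) for DHX58 and RTP4 (0.998) for ZBP1. ISG15 (0.997) and CMPK2 (0.997) followed for ZBP1, and these 4 members correlated with each other at r of 0.965 to 0.990. TBK1 correlated with them at 0.807 (TLR3), 0.840 (IFIH1), 0.792 (DHX58) and 0.755 (ZBP1). The nearest to STING1 was THY1 (0.953), to TBK1 PGS1 (0.944), to IRF3 MAPK15 (0.938), to MAVS TRIM17 (0.955) and to TICAM1 RAD50 (0.766). The points share 3 donors and the treatment groups, and the values are a description.

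In the joint cells given resting MSC-CM, each of the 10 genes was higher in every macrophage library than in any synoviocyte or chondrocyte library. The share of all genes that separated in this way was not counted, so this is not shown to be particular to the 10. The order of means was macrophages, synoviocytes, chondrocytes for TLR3, TLR9, IFIH1 and MAVS, and macrophages, chondrocytes, synoviocytes for TICAM1, DHX58, STING1, TBK1 and IRF3. The comparisons between cell types share libraries. EdgeR called 9 of the 10 as higher in macrophages than in synoviocytes, beside 71.6% of all genes in either direction, and all 10 as higher than in chondrocytes, beside 71.5%. It called 3 of 10 between chondrocytes and synoviocytes, beside 18.1%. The cells of each type came from 1 horse, and cell type, culture and, by the labels, cytokine dose cannot be told apart.

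IFIH1 was at 100, 287 and 213 CPM in macrophages given resting media of donors AG1, ORC and PC. It was at 1.63, 1.26 and 1.69 CPM in synoviocytes and at 0.187, 0.524 and 0.362 CPM in chondrocytes. Macrophages and synoviocytes differed by 7.02 ± 0.42 (log2, SE, n = 3, edgeR adjusted p = 1.01e-07), and macrophages and chondrocytes by 9.19 ± 0.49 (edgeR adjusted p = 4.3e-08). Chondrocytes were lower than synoviocytes (log2 difference −2.17 ± 0.58, edgeR adjusted p = 0.0254), a call that was lost without the chondrocyte library of PC (0.0668) or AG1 (0.0983), or the synoviocyte library of AG1 (0.0645) or PC (0.0717).

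TLR3 was at 13.7, 40.1 and 32.2 CPM in macrophages, at 0.652, 0.395 and 1.06 CPM in synoviocytes and at 0 counts in all 3 chondrocyte libraries. Macrophages were higher than synoviocytes by 5.33 ± 0.50 (log2, SE, n = 3, edgeR adjusted p = 1.49e-05). Against the floor of 3 counts over the chondrocyte group, TLR3 was at least 820-fold higher in macrophages (edgeR adjusted p = 3.16e-06) and at least 21.7-fold higher in synoviocytes (edgeR adjusted p = 0.012). ZBP1 was at 87.0, 246 and 150 CPM in macrophages and at 0 counts in all synoviocyte and chondrocyte libraries given resting medium. That is at least 4.26e3-fold higher than in synoviocytes (edgeR adjusted p = 8.71e-06) and at least 4.54e3-fold higher than in chondrocytes (edgeR adjusted p = 8.39e-06).

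DHX58 was at 66.4, 255 and 141 CPM in macrophages, against means of 2.33 ± 0.555 CPM (SD, n = 3) in synoviocytes and 2.53 ± 1.71 CPM in chondrocytes. TLR9 was at 2.64 ± 0.805 CPM in macrophages, the only cells with more than 1 CPM, against 0.362 ± 0.195 CPM in synoviocytes and 0.241 ± 0.106 CPM in chondrocytes. The other genes spanned a smaller range. STING1 was at 46.4 ± 2.39 CPM in macrophages, 14.0 ± 4.17 CPM in chondrocytes and 8.30 ± 0.712 CPM in synoviocytes. Chondrocytes were higher than synoviocytes in STING1 by 0.75 ± 0.19 (log2, SE, n = 3, edgeR adjusted p = 0.0231), a call lost on leaving out any of the chondrocyte libraries PC (0.0744) and AG1 (0.0964) and the synoviocyte libraries ORC (0.0825), AG1 (0.0790) and PC (0.0517).

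TICAM1 was at 40.2 ± 4.01 CPM in macrophages (SD, n = 3), 15.6 ± 4.73 CPM in chondrocytes and 11.6 ± 0.884 CPM in synoviocytes. TBK1 was at 80.5 ± 6.73, 34.1 ± 8.67 and 26.3 ± 2.41 CPM, and IRF3 at 61.5 ± 7.33, 39.8 ± 5.10 and 34.9 ± 3.21 CPM in the same order. For these 3 genes macrophages stood above both other cell types, while chondrocytes and synoviocytes were not called as different. MAVS was the most even, at 40.9 ± 4.21 CPM in macrophages, 34.1 ± 2.37 CPM in synoviocytes and 33.0 ± 3.40 CPM in chondrocytes. It exceeded synoviocytes by 0.25 ± 0.11 (log2, SE, n = 3, edgeR adjusted p = 0.0647, DESeq2 adjusted p = 0.0483) and chondrocytes by 0.31 ± 0.11 (edgeR adjusted p = 0.029). The latter call was lost without the chondrocyte library of PC (0.0964) or AG1 (0.0816) or the macrophage library of PC (0.0821).

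**Figure D2:**
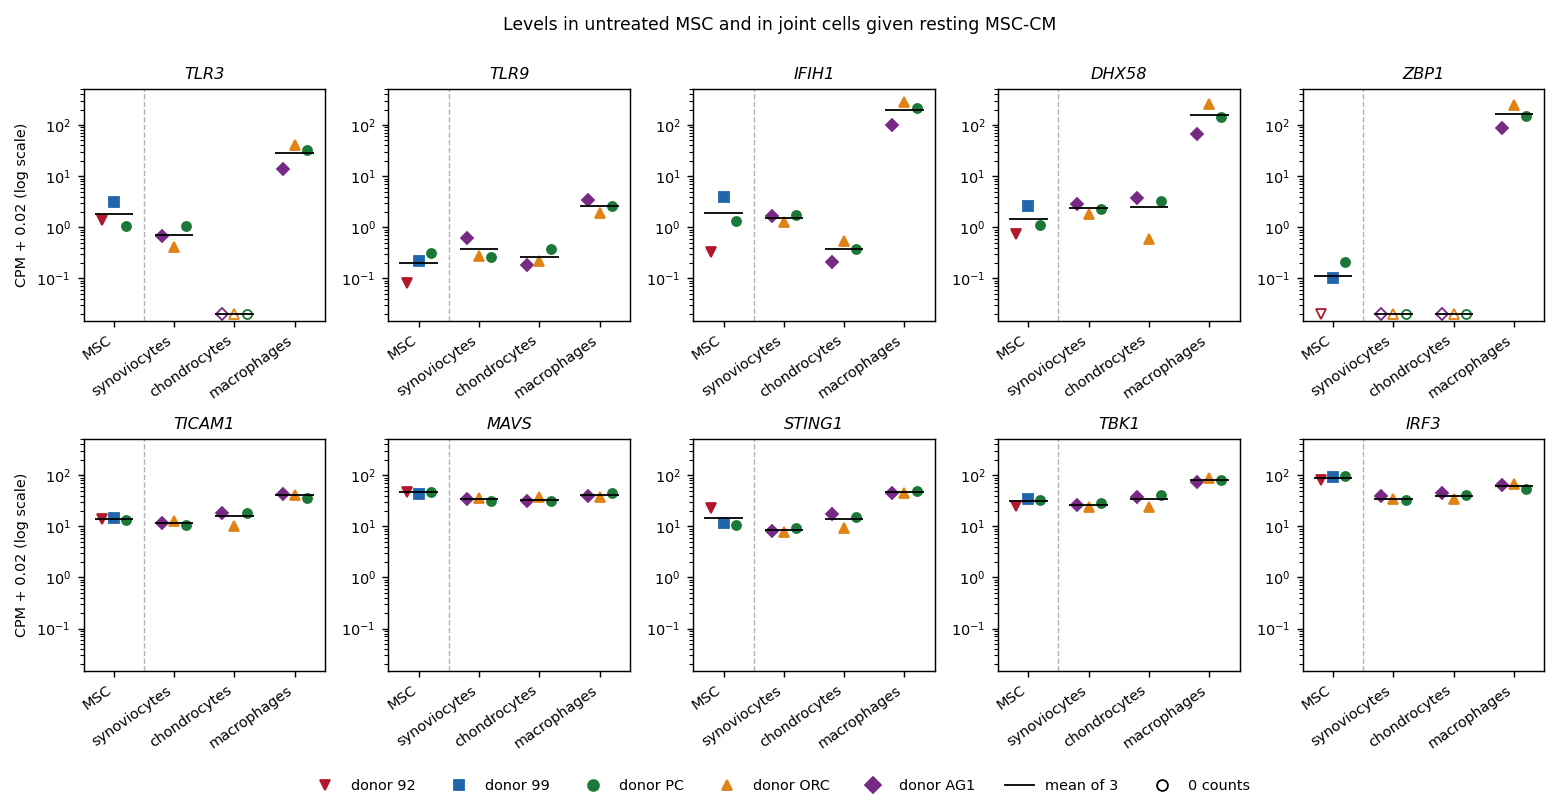
CPM plus 0.02 on a log axis for the 10 genes in untreated MSC and in joint cells given resting MSC-CM, with a symbol per MSC donor, open where the count was 0, and a line at the mean of 3 libraries. IFIH1 lies at 100 to 287 CPM in macrophages and below 2 CPM in synoviocytes and chondrocytes, while MAVS lies close in all cell types, and the dashed line separates MSC, which were normalized in another table.

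The table of MSC was normalized separately and its cells had no cytokines, so their levels are set beside the joint cells without a test. Untreated MSC had means of 1.83 ± 1.09 CPM (SD, n = 3) for TLR3, 1.86 ± 1.90 CPM for IFIH1 and 1.47 ± 1.00 CPM for DHX58, nearer to synoviocytes than to macrophages. IRF3 was at 90.1 ± 7.30 CPM and MAVS at 46.1 ± 2.13 CPM in untreated MSC, each the highest mean of the 4 cell types.

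The related lists were compared between macrophages and synoviocytes, where edgeR called 71.6% of all genes in either direction. Among 25 kinase and IRF genes, 17 were higher and 4 lower in macrophages, and among 27 endosomal TLR genes 21 and 4. CTSS, a cathepsin of the endosome, was at 3830 ± 225 CPM (SD, n = 3) in macrophages against 114 ± 4.22 CPM in synoviocytes, and IRF5, which acts below MYD88, at 46.8 ± 2.67 against 0.531 ± 0.101 CPM. Of 29 DNA sensing genes 13 were higher and 9 lower. ENPP1, which hydrolyses cGAMP outside cells, was at 0 counts in macrophages and at 86.7 ± 10.8 CPM in synoviocytes and 96.2 ± 2.07 CPM in chondrocytes. Of 23 RNA sensing genes 13 were higher and 5 lower.

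In synoviocytes, none of the genes was called with either medium, and the highest TLR3, IFIH1 and DHX58 levels were in 1 library, that with TLR-MSC-CM of donor ORC. IFIH1 was at 1.63, 1.26 and 1.69 CPM with resting MSC-CM of AG1, ORC and PC, at 1.67, 7.69 and 2.01 CPM with TLR-MSC-CM and at 2.59, 2.59 and 2.44 CPM with STING-MSC-CM. DHX58 was at 2.90, 1.79 and 2.29 CPM, at 2.75, 10.7 and 3.32 CPM and at 3.00, 3.78 and 2.44 CPM in the same order. TLR3 was at 0.652, 0.395 and 1.06 CPM, at 1.08, 2.13 and 1.25 CPM and at 1.01, 1.44 and 0.910 CPM. The ORC library with TLR-MSC-CM was the highest of all for each of the 3 genes and the only synoviocyte library with ZBP1, at 8 counts.

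The log2 fold change with TLR-MSC-CM was 1.06 ± 0.38 (SE, n = 3) for TLR3, 1.27 ± 0.45 for IFIH1 and 1.22 ± 0.41 for DHX58, and none was called (edgeR adjusted p = 0.494 for TLR3). Without that ORC library the values were 0.73, 0.27 and 0.38. With STING-MSC-CM they were 0.65 ± 0.39, 0.72 ± 0.46 and 0.38 ± 0.43, with edgeR adjusted p of 0.655 to 0.815 over these and STING1. ZBP1 had too few counts to be tested, which left 9 of the 10. Of these 0 were called with either medium by edgeR, beside 0% of all genes, or by DESeq2. With TLR-MSC-CM 3 had an unadjusted edgeR p under 0.05, beside 10% of all genes, and with STING-MSC-CM 0, beside 7.6%. Between the activated media it was 0, beside 2.02%.

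Some groups did not overlap. TLR3 and TBK1 were higher in all 3 libraries with TLR-MSC-CM than in any with resting MSC-CM, beside 6.57% of all genes, and IFIH1 was so with STING-MSC-CM, beside 7.6%. TBK1 was at 26.3, 23.9 and 28.8 CPM with resting and at 29.1, 29.3 and 30.3 CPM with TLR-MSC-CM. That is a log2 change of 0.16 ± 0.08 (SE, n = 3). Without MSC medium, TLR3 was at 1.15 CPM with cytokines alone and at 1.32 CPM with no addition, within its TLR-MSC-CM range, and TBK1 was at 31.2 CPM with cytokines alone, above its range. With no addition IFIH1 was at 3.15 CPM, above its STING-MSC-CM range of 2.44 to 2.59 CPM. With cytokines alone IFIH1 was at 1.79 CPM, below that range. STING1, TICAM1, MAVS and IRF3 differed by at most 0.25 (log2) with either medium.

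In chondrocytes, TLR3 was at 0 counts in all 3 libraries with resting MSC-CM and was detected in all 6 with activated media. It had 5, 5 and 3 counts with TLR-MSC-CM and 43, 3 and 9 counts with STING-MSC-CM of AG1, ORC and PC. Against the floor of 3 counts over the group TLR3 was at least 3.55-fold higher with TLR-MSC-CM and, with STING-MSC-CM, at least 17.5-fold higher. Without the AG1 library, which held 43 of the counts, the bound with STING-MSC-CM was 7.0-fold. The unadjusted edgeR p was 0.0193 and 0.00227, and the adjusted p was 1 for both. The cytokine library had 1 count of TLR3 and the library with no addition had 6, so its counts with TLR-MSC-CM lie within what was seen without medium.

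The medium of donor AG1 gave the highest levels with STING-MSC-CM. IFIH1 was at 0.187, 0.524 and 0.362 CPM with resting MSC-CM, at 0.492, 0.159 and 0.225 CPM with TLR-MSC-CM and at 1.88, 0.377 and 0.340 CPM with STING-MSC-CM of AG1, ORC and PC. DHX58 was at 3.71, 0.564 and 3.32 CPM, at 3.94, 0.702 and 3.39 CPM and at 12.7, 1.06 and 2.79 CPM. With media, ZBP1 was at 0 counts except for 17 counts in the AG1 library with STING-MSC-CM, and it had 1 count in the library with no addition. The AG1 library with STING-MSC-CM also held the highest summed macrophage markers among the chondrocytes, 38.7 CPM, of which CD68 made 36.4 CPM. The log2 fold change with STING-MSC-CM was 1.33 ± 0.77 (SE, n = 3) for IFIH1 and 1.13 ± 0.95 for DHX58, neither of them called.

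Of the 10 genes in chondrocytes, 0 were called in any comparison of media by edgeR, beside 0% of all genes, or by DESeq2, and this held without the ORC libraries, an alternative chosen after seeing the data. TLR3 alone had an unadjusted edgeR p under 0.05 with TLR-MSC-CM, beside 0.559% of all genes, and with STING-MSC-CM, beside 0.909%. Between the activated media none had, beside 0.811%. TLR3 was also the only one of the 10 that was higher in all 3 libraries than in any with resting MSC-CM, beside 1.84% of all genes with TLR-MSC-CM and 1.9% with STING-MSC-CM. TICAM1, MAVS, STING1, TBK1 and IRF3 differed by at most 0.08 (log2) with either medium.

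**Figure D3:**
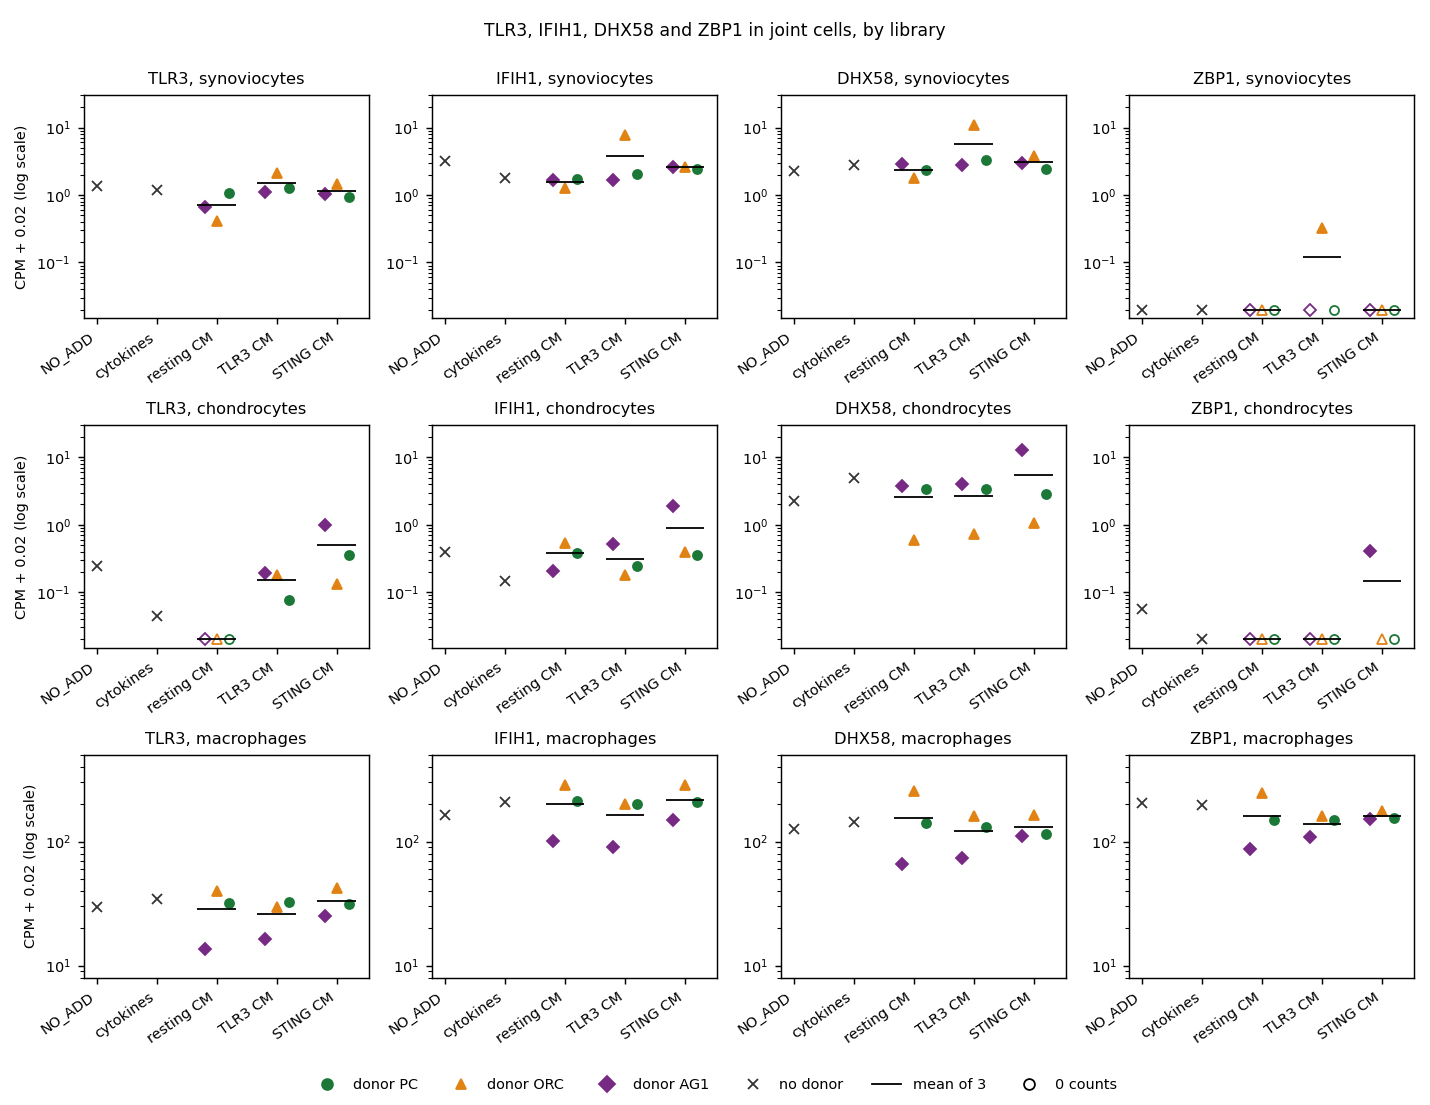
CPM plus 0.02 on a log axis for TLR3, IFIH1, DHX58 and ZBP1 in synoviocytes, chondrocytes and macrophages under each medium, with a symbol per MSC donor, open where the count was 0, a line at the mean of 3, and crosses for the single libraries with cytokines or with no addition. IFIH1 reaches 7.69 CPM in the ORC library of synoviocytes with TLR-MSC-CM and 1.88 CPM in the AG1 library of chondrocytes with STING-MSC-CM, and stays between 90.4 and 287 CPM in macrophages.

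In macrophages TLR3, IFIH1, DHX58 and ZBP1 were high under every medium, while TLR9 did not exceed 3.60 CPM. For none of these genes did the groups separate by medium relative to resting MSC-CM. IFIH1 was at 100, 287 and 213 CPM with resting MSC-CM of AG1, ORC and PC, at 90.4, 202 and 201 CPM with TLR-MSC-CM and at 150, 287 and 209 CPM with STING-MSC-CM. ZBP1 was at 87.0, 246 and 150 CPM, at 109, 160 and 150 CPM and at 153, 177 and 154 CPM. TLR3 was at 13.7, 40.1 and 32.2 CPM, at 16.2, 29.6 and 32.4 CPM and at 25.0, 42.4 and 31.6 CPM. The groups overlapped for each of these genes, and the AG1 library was the lowest with resting MSC-CM.

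The log2 fold change of TLR3, IFIH1, DHX58 and ZBP1 ran from −0.35 to −0.13 with TLR-MSC-CM and from −0.24 to 0.21 with STING-MSC-CM, with standard errors of 0.30 to 0.42. Of the 10 genes, 0 were called by edgeR, beside 0% of all genes, or by DESeq2 with either medium. None had an unadjusted edgeR p under 0.05, beside 2.13% of all genes with TLR-MSC-CM, 4.76% with STING-MSC-CM and 6.6% between the activated media. With the donor as a replicate block, DESeq2 called IFIH1 as higher with STING-MSC-CM than with TLR-MSC-CM (adjusted p = 0.012, higher in 3 of 3 donors), beside 6.59% of all genes, and edgeR did not (adjusted p = 0.11). Macrophage markers summed to 9687, 12135 and 11771 CPM with STING-MSC-CM of AG1, ORC and PC against 8018, 9995 and 10565 CPM with TLR-MSC-CM. T cell markers summed to 220, 214 and 235 CPM against 361, 233 and 257 CPM, and the part of either in the IFIH1 difference was not tested. TICAM1 and MAVS were lower in all 3 STING-MSC-CM libraries than in any TLR-MSC-CM library, as were 7.07% of all genes. Their log2 differences were −0.20 ± 0.11 and −0.17 ± 0.10 (SE, n = 3).

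Whether the change with a medium differed between joint cell types was tested directly. EdgeR called 0 of the 10 genes in any of the 6 tests, beside 0% of all genes. DESeq2 called 1, TLR3 with STING-MSC-CM between macrophages and chondrocytes (adjusted p = 0.0246), beside 0.0241% of all genes, and edgeR gave an adjusted p of 1. With the donor within each cell type as a replicate block, edgeR gave an adjusted p of 0.0673 for this difference. The chondrocyte libraries with resting MSC-CM had 0 counts of TLR3.

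**Figure D4:**
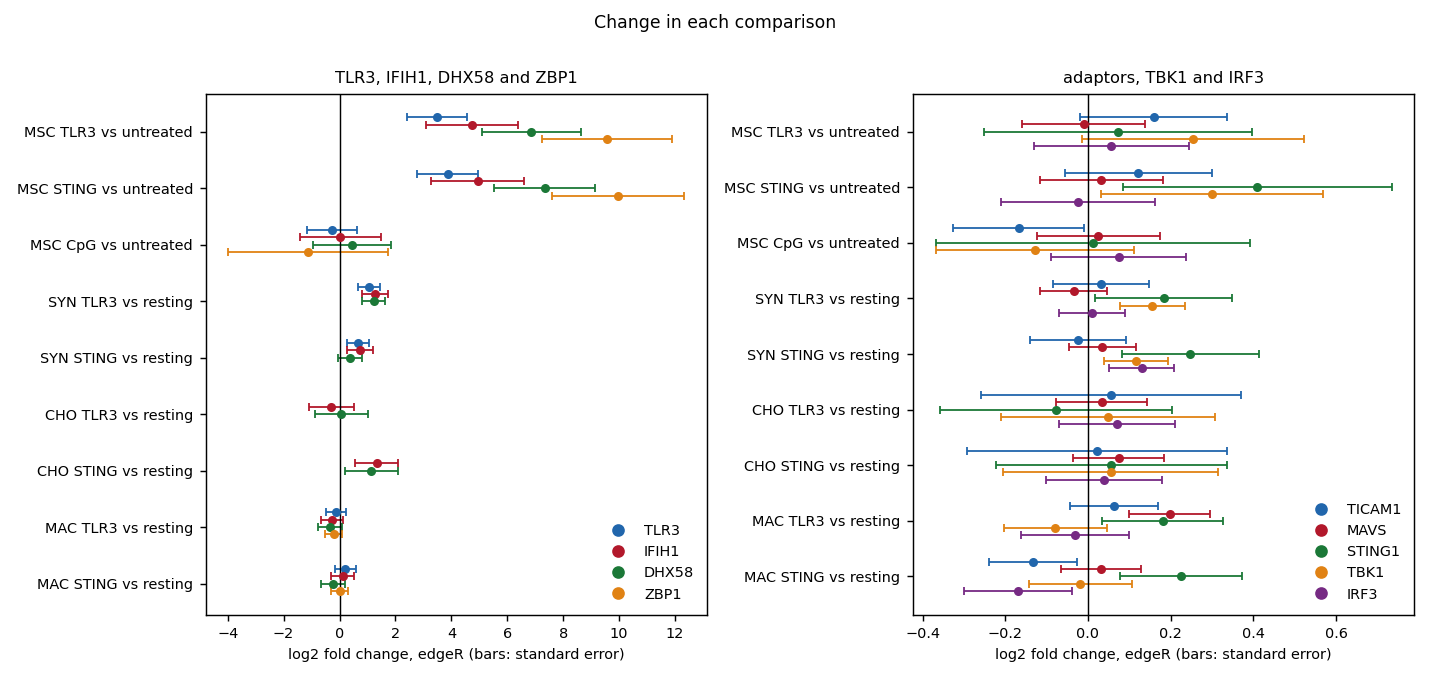
Log2 fold changes by edgeR, with bars for the standard error, of 9 of the genes (all but TLR9) in MSC with each agonist or CpG and in joint cells with each activated medium, leaving out genes with a group at 0 counts. In MSC with the TLR3 or STING agonist, TLR3, IFIH1, DHX58 and ZBP1 lie at 3.47 to 9.97 and STING1, TICAM1, MAVS, TBK1 and IRF3 between −0.02 and 0.41, while with CpG the former lie between −1.13 and 0.43 and the latter between −0.17 and 0.07.

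The single libraries without MSC medium have no replicates, and their intervals cover counting error only. In synoviocytes, STING1 was at 5.59 CPM with no addition and 9.41 CPM with cytokines, a ratio of 1.69 (95% exact counting interval 1.38 to 2.06), and IFIH1 at 3.15 and 1.79 CPM, a ratio of 0.568 (0.393 to 0.810). In chondrocytes, TICAM1 was at 10.2 and 20.6 CPM, a ratio of 2.03 (1.76 to 2.33), DHX58 at 2.22 and 4.96 CPM, a ratio of 2.23 (1.66 to 3.03), and TBK1 at 29.0 and 43.7 CPM, a ratio of 1.51 (1.39 to 1.64). Of these chondrocyte levels with no addition, TICAM1 lay within the range of the ORC libraries, 10.1 to 11.5 CPM. DHX58 and TBK1 lay above their ORC ranges, 0.564 to 1.06 CPM and 24.3 to 25.4 CPM. In macrophages, IFIH1 was at 163 and 208 CPM, a ratio of 1.28 (1.22 to 1.33), TICAM1 at 42.3 and 33.6 CPM, a ratio of 0.793 (0.723 to 0.870), and ZBP1 at 203 and 198 CPM, a ratio of 0.975 (0.937 to 1.01). IFIH1 and ZBP1 were thus already high in the 1 macrophage library with no addition, as were TLR3 (29.6 CPM) and DHX58 (127 CPM). TLR9 was at 1.82 CPM in it.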

How the data were processed

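Per the submitters' processing notes and the study's methods, the reads were trimmed with cutadapt 1.12, aligned with STAR to EquCab3.0 and counted per gene with HTSeq 0.11.0, and the values deposited by the authors are raw counts for protein coding genes. Strandedness is not given in the sources used here. IFIH1 overlaps GCA, and IRF3 overlaps BCL2L12, in a RefSeq annotation of another assembly. Over both tables, 41 cells were deposited in rounded notation, none of them for the genes described. Genes whose counts summed to 10 or more in a fit's libraries were tested with edgeR 4.0.16 (TMM, quasi-likelihood, Benjamini-Hochberg over all genes tested), with DESeq2 1.42.0 as an alternative, in R 4.3.3. Standard errors of edgeR log2 changes are the absolute change over the square root of the test's F statistic, not estimates from the fit. Samples were grouped by the labels. Libraries of the same donor deviated together in MSC (median correlation 0.776), chondrocytes (0.415) and macrophages (0.181), not in synoviocytes (0.0121), so the donor pairs the first 3. The fits were tested on simulated counts drawn without donor effects or outlying libraries, so that test does not cover these features of the data. The genes named are the 10 members and, from each list, at most 2 per comparison with an adjusted p under 0.05 by either tool and the same direction in all 3 donors, by the smallest edgeR p. The members and lists were chosen with earlier results of these data known.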

Additional observations from a re-analysis of the deposited data

Results flagged for a closer look

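TLR3 differed between macrophages and chondrocytes in its change with STING-MSC-CM by DESeq2 (adjusted p of the difference 0.0246), and the chondrocyte libraries with resting medium had 0 counts. IFIH1 moved in opposite directions with TLR-MSC-CM in every donor's medium, with a log2 fold change of −0.28 in macrophages and 1.27 in synoviocytes, and the edgeR test of the difference gave −1.55 ± 0.73 (SE, edgeR adjusted p = 1). With AG1 medium the synoviocyte levels were 1.63 and 1.67 CPM, from 50 and 43 counts, and the synoviocyte change was 0.27 without the ORC library with TLR-MSC-CM. IRF3 did so with STING-MSC-CM, at −0.17 in macrophages and 0.13 in synoviocytes, with a difference of −0.30 ± 0.18 (SE, edgeR adjusted p = 1).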

How the results depend on the processing

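EdgeR with the donor as a replicate block called 0 of the 10 genes in each treatment comparison, as without it. With the TLR3 agonist in MSC, the count of 0 became 4 with DESeq2, 2 with DESeq2 and the replicate block, 0 to 3 on leaving out 1 library, and, chosen after seeing the data, 2 (edgeR) or 4 (DESeq2) without donor 92. With the STING agonist it became 4 with DESeq2, 4 with DESeq2 and the replicate block, 0 on leaving out any 1 library, and 2 (edgeR) or 4 (DESeq2) without donor 92. Over all genes edgeR called 0, and DESeq2 52 with the TLR3 agonist and 95 with the STING agonist. Between activated media in macrophages, DESeq2 with the replicate block called 1; over all genes edgeR called 336 and DESeq2 761 with the block, and DESeq2 33 without it. Between chondrocytes and synoviocytes, 3 became 1 to 5 on leaving out 1 library, and among the 6 tests of whether a medium's change differed between cell types DESeq2 called 1. Among these alternatives none turned a called direction. Levels from unscaled CPM differed from those given by less than 1 SD.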
